A study of Mus musculus with 9 samples.

Results

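The Schlafen family was followed in bone marrow-derived dendritic cells (DCs), as the 7 genes of the deposited count matrix with the symbols *Slfn1*, *Slfn2*, *Slfn3*, *Slfn4*, *Slfn5*, *Slfn8* and *Slfn9*, out of 55471 genes in all. The members were chosen by symbol and not by a cut on their values, though with earlier results of these data known. All 7 passed the filter on low counts that left 16260 genes for testing. DCs were grown from the bone marrow of wild-type female C57BL/6 mice, 8 to 20 weeks of age, with 20 ng/mL GM-CSF. They were left unstimulated or were stimulated for 6 h with 100 ng/mL LPS, a component of the bacterial outer membrane sensed by Toll-like receptor 4, or with 1000 U/mL IFN-β, an antiviral cytokine of the type I interferon class. With 3 libraries per group, lettered A to C, there were 9 libraries. The sources do not say whether the letters stand for separate animals or cultures, so that p-values measure the spread between these libraries only.

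Schlafen proteins are named after the German word for sleep, since the founding mouse genes were described as brakes on T cell growth. All share a core domain, and several members bind or cut transfer RNA. The family is sorted by length: short members (*Slfn1*, *Slfn2*) hold the core alone, intermediate members (*Slfn3*, *Slfn4*) add a linker domain, and long members (*Slfn5*, *Slfn8*, *Slfn9*) also carry a helicase-like domain. In the immune system, type I interferon reaches its target genes through the receptor subunits Ifnar1 and Ifnar2, the kinases Jak1 and Tyk2, and transcription factors, Irf9 among them, that bind the interferon-stimulated response element (ISRE). LPS acts through Toll-like receptor 4 and can lead to production of IFN-β itself, which then acts on the same receptor.

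All 7 genes lie in a single cluster on mouse chromosome 11 (GRCm38, GENCODE M21), within 263.8 kb from base 82951349 to base 83215154. From the lower coordinate upwards the order is *Slfn5*, *Slfn9*, *Slfn8*, *Slfn2*, *Slfn1*, *Slfn4* and *Slfn3*, with *Slfn8* and *Slfn9* on the minus strand and the others on the plus strand. The predicted proteins follow the length classes, with 337 residues for Slfn1 and 378 for Slfn2, 602 for Slfn4 and 640 for Slfn3, 884 for Slfn5, and 910 each for Slfn8 and Slfn9. Over the aligned residues, the closest pairs were Slfn8 and Slfn9 at 85.8% identity and Slfn3 and Slfn4 at 83.9%, while Slfn1 and Slfn2 shared 55.3% and Slfn5 and Slfn9 shared 43.4%. Reads of near-identical copies can be lost or misplaced: of all 100-base stretches of the annotated transcripts, 3.38% of those of *Slfn8* and 3.71% of those of *Slfn9* also occurred in another gene, against 2.92% for *Slfn3*, 0.27% for *Slfn4*, 0.13% for *Slfn2* and 0 for *Slfn1*. The shared stretches of *Slfn8* and *Slfn9* occurred in each other or in the pseudogene *Slfn10-ps*. Those of *Slfn3* occurred in other genes and not in *Slfn4*. *Slfn5* had 6.4%, shared with no other member. Its exons overlap 559 bases of the antisense gene *Slfn5os*, whose reads cannot be told apart without strand. The sources do not give that setting. *Slfn5os* held between 2 and 25 counts per library.

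The sequence before the start of each gene was read to set the responses beside the elements that interferon and LPS signals are known to use. Promoter windows of RefSeq (GRCm38.p6), with 250 bases before and 50 after a start, were found for 7 of 7 members. Both strands were searched for the ISRE core (GAAA, 2 free bases, GAAA), the ETS-IRF composite element (GGAA, 2 free bases, GAAA), the gamma-activated site (TTC, 3 free bases, GAA) and a kappaB-like site (GGGA, 2 free bases, TTCC). RefSeq and GENCODE M21 place the first base of *Slfn2*, *Slfn3*, *Slfn4*, *Slfn8* and *Slfn9* alike, that of *Slfn1* differs by 29 bases, and the RefSeq start of *Slfn5* (base 82952102) lies 753 bases inside the longest extent of the gene in GENCODE. The ISRE core was present before the RefSeq start of *Slfn5*, *Slfn8* and *Slfn9*, and in 3.44% of all 32851 windows. The composite element was present before *Slfn2*, and in 2.72% of all windows. No member held the gamma-activated site (8.3% of all windows) or the kappaB-like site (1.47%) as spelled here. The kappaB-like pattern was searched with 2 free bases only, and the *Slfn2* stretch below holds gggatttcc, which has fewer. The windows of *Slfn1*, *Slfn3* and *Slfn4* held none of the 4 letter patterns. These are matches of letters in this window only and not measured sites. The stretches with a match, and those of the related pair *Slfn3* and *Slfn4*, whose responses differed most within a pair, are shown 5′ to 3′ on the strand of the gene, with the matched letters in capitals.
Slfn8: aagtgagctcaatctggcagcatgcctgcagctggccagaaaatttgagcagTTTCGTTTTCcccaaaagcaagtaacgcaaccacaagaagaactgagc
Slfn9: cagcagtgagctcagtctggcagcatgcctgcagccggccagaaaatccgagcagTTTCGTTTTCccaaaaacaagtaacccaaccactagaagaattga
Slfn5: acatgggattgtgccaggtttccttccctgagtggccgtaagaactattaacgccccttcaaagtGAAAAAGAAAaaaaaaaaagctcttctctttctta
Slfn2: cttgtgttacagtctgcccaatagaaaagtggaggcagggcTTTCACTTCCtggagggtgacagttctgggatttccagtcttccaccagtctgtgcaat
Slfn4: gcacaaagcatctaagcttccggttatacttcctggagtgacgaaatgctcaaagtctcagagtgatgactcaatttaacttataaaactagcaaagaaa
Slfn3: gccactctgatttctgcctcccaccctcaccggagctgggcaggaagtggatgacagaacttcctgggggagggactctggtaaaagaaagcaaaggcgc
The stretches of *Slfn8* (chr11:83020811-83020910, minus strand), *Slfn9* (chr11:82991831-82991930, minus strand), *Slfn2* (chr11:83065012-83065111), *Slfn4* (chr11:83175086-83175185) and *Slfn3* (chr11:83191230-83191329) are the 100 bases directly before the start, and that of *Slfn5* (chr11:82951882-82951981) begins 220 bases before its RefSeq start, in an intron of a GENCODE transcript that starts upstream. The ISRE letters stand on the strand opposite to the gene in *Slfn8*, first base at -48 from the start, and in *Slfn9*, at -45, with the same 10 letters TTTCGTTTTC. In *Slfn5* the match began at -155 from the RefSeq start, and so downstream of the GENCODE start, on the strand of the gene, and ran into a stretch of A. The 250 bases before *Slfn8* and *Slfn9* were identical at 82.4% of positions, against 47.2 to 56.8% for the other 20 pairs of members. *Slfn3* and *Slfn4*, whose proteins were 83.9% identical, had 125 identical positions among these 250.

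The libraries held 33425803 to 43735199 gene counts, which were scaled to CPM with TMM factors of 1.18 to 1.26 (unstimulated), 0.783 to 0.841 (LPS) and 0.977 to 1.02 (IFN-β). A count of 3, taken as the smallest that this depth can show, stood for 0.0674 to 0.106 CPM, and the lowest level of any member was 13.5 CPM. All 6 DC markers were above 3 counts in every library (summed CPM of 4330 to 5176, 6086 to 6729 and 4847 to 5129 in the unstimulated, LPS and IFN-β groups), with *Itgax* at a mean of 1375, 1602 and 1485 CPM. The largest part of the DC sum was *Cd74*, at a mean of 2537, 3607 and 2687 CPM. *Flt3* was at 3.06, 3.49 and 2.65 CPM and *Zbtb46* at 32.5, 53.9 and 34.9 CPM. All 5 macrophage markers were also present, at 1662 to 2692 summed CPM, as a GM-CSF culture can hold both. Among them, in the same order of groups, *Csf1r* was at a mean of 1101, 562 and 1055 CPM and *Fcgr1* at 97.3, 446 and 567 CPM. T cell markers summed to 0.517 to 0.925 CPM in unstimulated, 3.18 to 4.4 in LPS-activated and 1.22 to 1.99 in IFN-β-treated cells, with *Lck* at a mean of 0.314, 3.60 and 1.10 CPM and *Cd3e* at a mean of 0.0225 CPM or less in every group. Neutrophil markers summed to 8.82 to 22.5 CPM over all libraries, B cell markers to 0.159 to 0.531 and NK cell markers to at most 0.279, with *Gzma* at 0 counts throughout. Basophil or mast cell markers reached at most 0.277 CPM. Of the 4 plasmacytoid DC markers, *Siglech* and *Ly6d* had group means of 0.0297 CPM or less, and the list's rise from 102 to 180 CPM without stimulation to 598 to 726 with LPS and 428 to 473 with IFN-β lay in *Bst2*, itself interferon-stimulated, and *Tcf4*. The part of these marker lists in the results was not tested. In bulk RNA, fewer cells of a type and less RNA per cell cannot be told apart.

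The family as a whole was lower in unstimulated DCs than with either stimulus. The 7 genes took 0.127, 0.109 and 0.0688% of all counts in the unstimulated libraries A, B and C. The share was 0.549, 0.519 and 0.490% with LPS and 0.420, 0.410 and 0.401% with IFN-β. The groups did not overlap, and the unstimulated library C was the lowest of all 9.

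**Figure D1:**
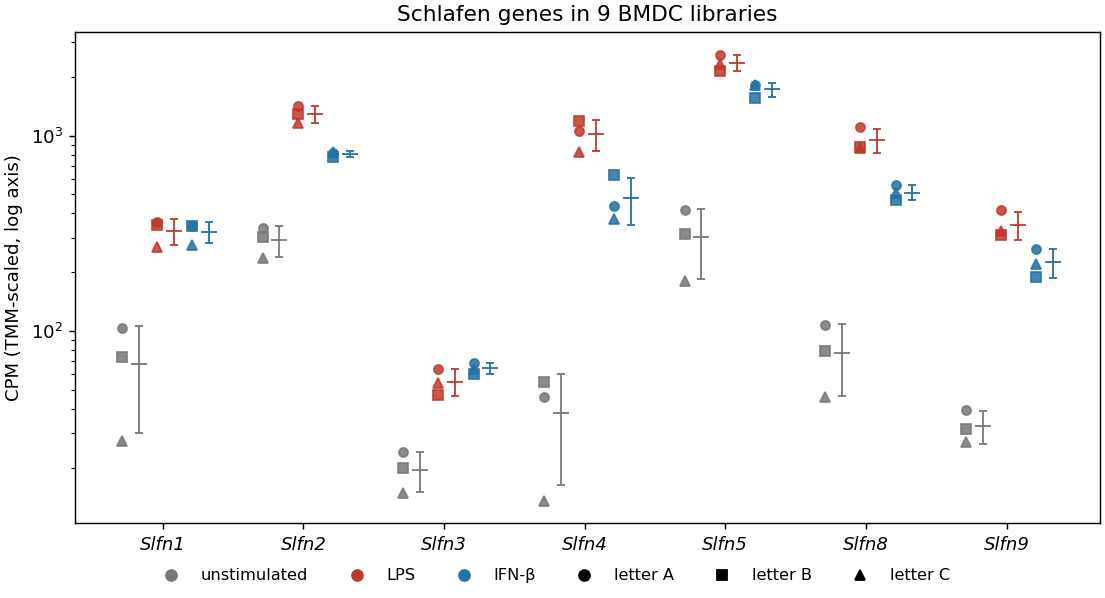
CPM of the 7 Schlafen genes on a log axis in each of the 9 libraries, coloured by group, with a marker shape for each letter and bars for the mean and SD of 3 libraries. In every gene both stimulated groups sit above all unstimulated libraries, and unstimulated library C (grey triangle) is the lowest point.

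The spread between libraries was widest without stimulation. The unstimulated library C was the lowest of its group for 7 of 7 members, and also for 20 of 20 interferon-stimulated reference genes, against 36.9% of all tested genes. The highest unstimulated library exceeded the lowest 4.07 times for *Slfn4* and 3.76 times for *Slfn1*, and 2.32 and 2.35 times for *Slfn5* and *Slfn8*. For *Slfn2*, *Slfn3* and *Slfn9* the ratio was 1.43, 1.61 and 1.47. With LPS it was between 1.21 and 1.44 for all 7 members, and with IFN-β between 1.07 and 1.67. *Irf7*, which encodes an interferon-induced transcription factor, held 9007, 7184 and 1474 counts in the unstimulated libraries A, B and C.

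LPS raised all 7 members. By the quasi-likelihood test of edgeR, Benjamini-Hochberg adjusted over all tested genes, 7 of 7 were higher, where 32.8% of all tested genes were called higher. The median log2 fold change was 2.95 over the members and -0.04 over all tested genes. For 7 of 7 members the 3 LPS libraries lay above the 3 unstimulated ones, as for 34.6% of all tested genes, and the exact permutation test of each member over 3 against 3 libraries gave p = 0.1, the smallest it allows.

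Among the intermediate members, *Slfn4*, a gene known from activated macrophages, was at 46.1, 55.0 and 13.5 CPM without stimulation and at 1057, 1185 and 823 CPM with LPS in libraries A, B and C. This was a 26.7-fold rise (log2 fold change 4.74, SE 0.46, edgeR adjusted p = 4.8e-06), the largest of the family and rank 200 from the top among 16260 tested genes. *Slfn3*, its closest relative and a gene studied in T cell activation and gut epithelium, was at 23.9, 19.8 and 14.8 CPM without stimulation and at 64.2, 47.0 and 54.2 CPM with LPS. Its rise was the smallest of the family at 2.83-fold (log2 1.50, SE 0.16, edgeR adjusted p = 1.1e-05).

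The long members rose between these extremes. *Slfn8*, which has been linked to T cell responses, was at 108, 79.2 and 45.9 CPM without stimulation and at 1103, 870 and 867 CPM with LPS. The rise was 12.2-fold (log2 3.61, SE 0.27, edgeR adjusted p = 5.8e-07). *Slfn9*, its near copy, went from 39.7, 31.7 and 27.1 CPM to 417, 309 and 324 CPM. This was 10.7-fold (log2 3.42, SE 0.18, edgeR adjusted p = 5.5e-08), close to the 12.2-fold of *Slfn8*. *Slfn5*, a nuclear member, went from 418, 314 and 181 CPM to 2601, 2155 and 2324 CPM, which is 7.75-fold (log2 2.95, SE 0.25, edgeR adjusted p = 1.8e-06). It was the most counted member under LPS in CPM, with the longest exons of the family at 6.326 kb.

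The short members rose less. *Slfn2*, whose loss leaves T cells unable to stay quiescent, was at 337, 302 and 236 CPM without stimulation and at 1411, 1292 and 1165 CPM with LPS. The rise was 4.42-fold (log2 2.14, SE 0.13, edgeR adjusted p = 1.4e-07). *Slfn1*, the founding growth inhibitor, went from 103, 73.8 and 27.4 CPM to 360, 348 and 269 CPM, a 4.78-fold rise with a wider error (log2 2.26, SE 0.37, edgeR adjusted p = 0.00024). Its lowest unstimulated value was again library C. Leaving out the unstimulated library A, B or C gave log2 fold changes with LPS of 2.68, 2.31 and 1.87 for *Slfn1*, and of 4.89, 5.09 and 4.33 for *Slfn4*. All 7 members remained past the threshold in each of these fits.

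IFN-β also raised all 7 members, in a comparison that shares its 3 unstimulated libraries with the LPS comparison. By the same edgeR test 7 of 7 were higher, where 23.6% of all tested genes were called higher. The median log2 fold change was 2.50 over the members and -0.02 over all tested genes. The 3 IFN-β libraries lay above the 3 unstimulated ones for 7 of 7 members, as for 28.5% of all tested genes (exact permutation p = 0.1 for each, the smallest possible).

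*Slfn4* was again the most raised, at 437, 626 and 376 CPM in the IFN-β libraries A, B and C, a 12.5-fold rise (log2 3.65, SE 0.44, edgeR adjusted p = 8.2e-05). *Slfn3* reached 68.9, 60.6 and 64.0 CPM, 3.30-fold above unstimulated DCs (log2 1.72, SE 0.16, edgeR adjusted p = 1.6e-05). *Slfn8* reached 559, 470 and 506 CPM, or 6.60-fold (log2 2.72, SE 0.26, edgeR adjusted p = 1.6e-05). As in the other members, all IFN-β libraries of these 3 lay above every unstimulated library. *Slfn9* reached 264, 190 and 220 CPM, or 6.85-fold (log2 2.78, SE 0.18, edgeR adjusted p = 1.7e-06). *Slfn5* reached 1808, 1555 and 1809 CPM, or 5.66-fold (log2 2.50, SE 0.25, edgeR adjusted p = 2.3e-05). Of the short members, *Slfn1* reached 345, 346 and 275 CPM, or 4.73-fold (log2 2.24, SE 0.37, edgeR adjusted p = 0.00059), which is close to its level with LPS. *Slfn2* reached 820, 775 and 828 CPM and was the least raised, 2.77-fold (log2 1.47, SE 0.13, edgeR adjusted p = 1.0e-05). Leaving out the unstimulated library A, B or C gave log2 fold changes with IFN-β of 2.67, 2.30 and 1.86 for *Slfn1*, and of 3.80, 4.01 and 3.24 for *Slfn4*. Without library C, *Slfn5* was at 2.23 and *Slfn8* at 2.45. The smallest rise of the family was *Slfn3* with LPS and *Slfn2* with IFN-β.

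**Figure D2:**
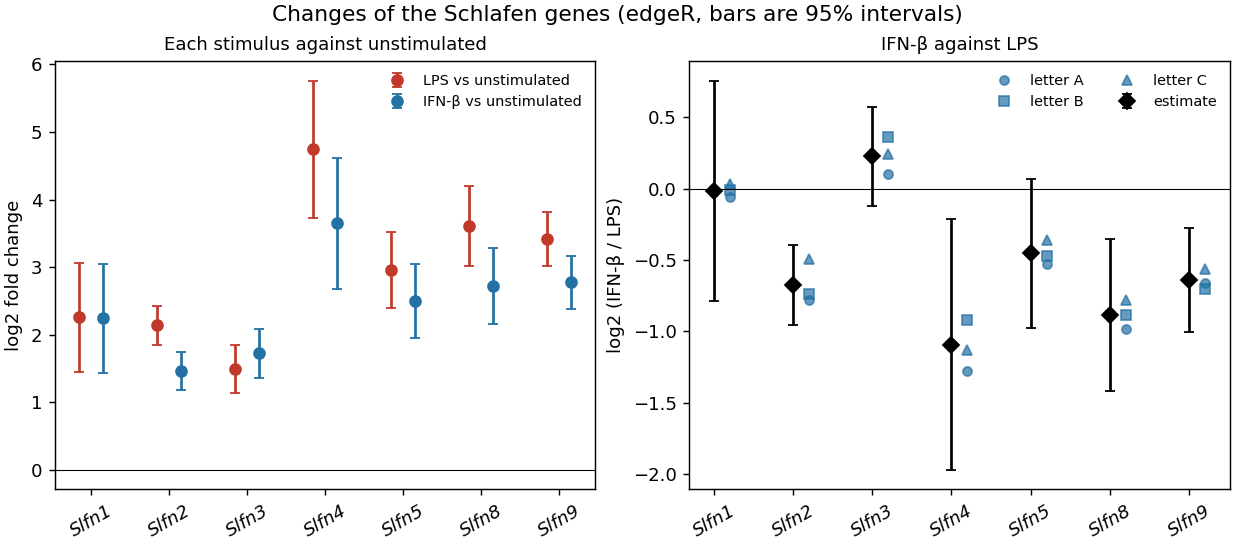
Left, log2 fold change of each Schlafen gene for LPS (red) and IFN-β (blue) against unstimulated DCs; right, log2 of IFN-β over LPS (black), each with its 95% interval from edgeR, and the log2 ratio within each letter (blue markers). All 14 changes on the left are above 0, and on the right *Slfn2*, *Slfn4*, *Slfn8* and *Slfn9* have intervals wholly below 0.

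The stimuli were then set against each other directly. *Slfn2*, *Slfn4*, *Slfn8* and *Slfn9* were lower with IFN-β than with LPS, and *Slfn1*, *Slfn3* and *Slfn5* did not pass the test. Thus 4 of 7 members differed, where 49.1% of all tested genes did, and all 4 were lower with IFN-β, where 23.3% of all tested genes were. The share of members that differed in either direction was near that background. The median of log2 IFN-β over LPS was -0.64 over the members and 0.02 over all tested genes.

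*Slfn4* was 2.13-fold lower with IFN-β (log2 -1.09, SE 0.40, edgeR adjusted p = 0.041), *Slfn8* 1.85-fold lower (log2 -0.89, SE 0.24, edgeR adjusted p = 0.011), *Slfn2* 1.60-fold lower (log2 -0.67, SE 0.13, edgeR adjusted p = 0.0012) and *Slfn9* 1.56-fold lower (log2 -0.64, SE 0.16, edgeR adjusted p = 0.0079). In these 4 genes and in *Slfn5* every IFN-β library lay below every LPS library, as for 27.3% of all tested genes (exact permutation p = 0.1 for each, the smallest possible). The call of *Slfn4* was the least firm, since it was lost when LPS library A, LPS library B, IFN-β library A or IFN-β library C was left out (edgeR adjusted p = 0.078, 0.11, 0.10 and 0.13) and when counts were scaled by library size only (edgeR adjusted p = 0.092). Within the letters *Slfn4* was lower with IFN-β in 3 of 3, by log2 values between -1.28 and -0.92.

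*Slfn1* was at about the same level under both stimuli, with a log2 difference of -0.01 (95% interval -0.79 to 0.76, edgeR adjusted p = 0.98). Its SE was 0.35 with the spread of all 3 groups and 0.13 when only the LPS and IFN-β libraries were fitted. *Slfn3* was the only member with a higher estimate under IFN-β, at log2 0.23 (95% interval -0.12 to 0.57, edgeR adjusted p = 0.26), and its libraries overlapped. *Slfn5* was at log2 -0.45 (95% interval -0.97 to 0.07, edgeR adjusted p = 0.14). The letters paired the libraries, and with the letter as a replicate block both of these genes passed the test, *Slfn3* as higher with IFN-β (log2 0.23, edgeR adjusted p = 0.048) and *Slfn5* as lower (log2 -0.45, edgeR adjusted p = 0.037), which made 6 of 7 members. *Slfn5* also passed without the unstimulated library C (edgeR adjusted p = 0.012), without all 3 libraries of letter C (0.039), when only the LPS and IFN-β libraries were fitted (0.0092) and with no filter on low counts (0.014). With scaling by library size only, *Slfn3* was called higher with IFN-β (log2 0.51, edgeR adjusted p = 0.0072). That scaling moves the median of all genes by 0.28.

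Ratios of related members within a library do not depend on the scaling, and they moved furthest for the *Slfn3* and *Slfn4* pair. Per kb of exon, the count of *Slfn4* was 1.66, 2.39 and 0.785 times that of *Slfn3* in the unstimulated libraries A, B and C. It was 14.2, 21.7 and 13.1 times with LPS, and 5.46, 8.89 and 5.05 times with IFN-β. The 3 groups did not overlap, and the mean log2 ratio rose by 3.44 with LPS and by 2.10 with IFN-β (exact permutation p = 0.1 each, two-sided, the smallest possible). The pair thus went from like levels to a ratio above 13 with LPS in each library. For *Slfn8* over *Slfn9* the ratio was 3.96, 3.64 and 2.47 without stimulation, 3.86, 4.11 and 3.90 with LPS, and 3.09, 3.61 and 3.36 with IFN-β. Each stimulated group overlapped the unstimulated one, while the LPS libraries lay above those with IFN-β by a mean log2 of 0.24 (exact permutation p = 0.1). For *Slfn1* over *Slfn2* the ratio was 0.273, 0.218 and 0.104 without stimulation, 0.228, 0.240 and 0.206 with LPS, and 0.376, 0.399 and 0.297 with IFN-β. The IFN-β libraries lay above those of both other groups, so that the short members moved unequally under IFN-β.

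**Figure D3:**
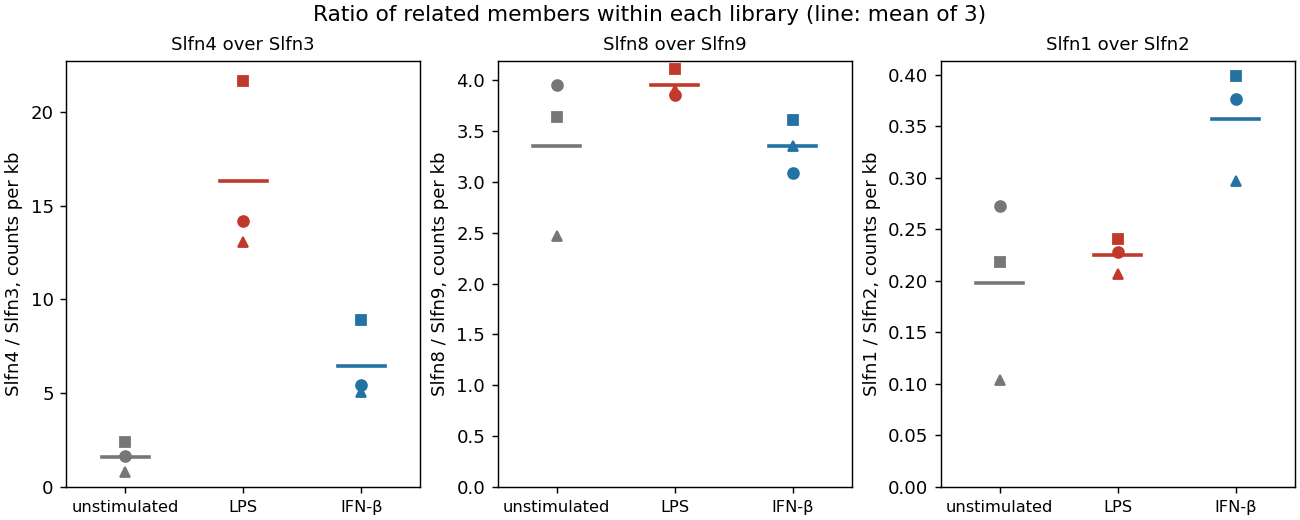
Ratio of counts per kb of exon between 2 related Schlafen genes within each library, by group, with marker shapes for the letters and a line for the mean of 3 libraries; each panel has its own axis from 0. *Slfn4* over *Slfn3* climbs from a mean of 1.61 to 16.3 with LPS and 6.47 with IFN-β, while *Slfn8* over *Slfn9* stays between 2.47 and 4.11.

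Levels were compared between members per kb of exon. This corrects for length only roughly, since all annotated exons of a gene stand in for the transcripts expressed. *Slfn2* was the most abundant in every group, at a mean ± SD over 3 libraries of 175 ± 31.0 CPM per kb in unstimulated DCs, 775 ± 73.9 after LPS and 485 ± 17.0 after IFN-β. In unstimulated DCs *Slfn5* (48.1 ± 18.9), *Slfn1* (36.5 ± 20.5), *Slfn8* (19.0 ± 7.57), *Slfn4* (9.65 ± 5.51), *Slfn3* (5.73 ± 1.33) and *Slfn9* (5.50 ± 1.07) followed, and each of these overlapped the next in its range over libraries. With LPS the order was *Slfn2*, *Slfn5* (373 ± 35.6), *Slfn4* (258 ± 46.3), *Slfn8* (231 ± 33.1), *Slfn1* (175 ± 26.3), *Slfn9* (58.7 ± 9.84) and *Slfn3* (16.2 ± 2.53), and only *Slfn4* and *Slfn8* overlapped as neighbours. With IFN-β it was *Slfn2*, *Slfn5* (273 ± 23.1), *Slfn1* (173 ± 21.8), *Slfn8* (125 ± 10.9), *Slfn4* (121 ± 32.9), *Slfn9* (37.7 ± 6.25) and *Slfn3* (18.9 ± 1.22), and only *Slfn8* and *Slfn4* overlapped as neighbours.

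The make-up of the family shifted with these levels. *Slfn2* held 54.0 to 68.0% of the summed CPM per kb in unstimulated libraries, 40.8 to 41.3% with LPS and 38.2 to 41.3% with IFN-β. *Slfn4* went from 1.64 to 4.4% up to 12.2 to 15.9% with LPS and 7.86 to 12.9% with IFN-β. *Slfn1* took 8.49 to 9.92% with LPS and 12.3 to 15.2% with IFN-β, so that those groups did not overlap. Without division by length, *Slfn2* and *Slfn5* took like shares of the family's CPM in unstimulated DCs, 36.4 ± 6.17% and 36.0 ± 2.87%, and *Slfn5* held 37.2 ± 2.58% under LPS and 41.7 ± 2.87% under IFN-β (mean ± SD, n = 3).

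**Figure D4:**
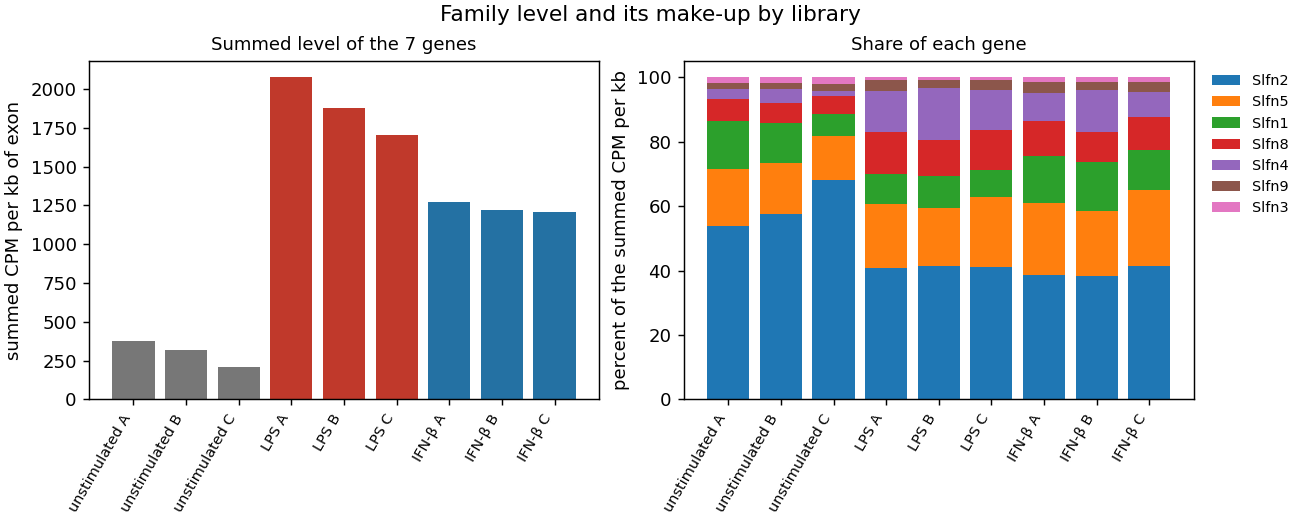
Left, summed CPM per kb of exon of the 7 Schlafen genes in each library; right, the percent of that sum held by each gene. The sum is 208 to 376 in unstimulated, 1702 to 2077 in LPS and 1205 to 1275 in IFN-β libraries, and the *Slfn2* share is largest in the unstimulated ones.

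The genes that carry the interferon signal moved in the same direction as the family. Of 9 genes of type I interferon signalling, 9 rose with LPS and 9 with IFN-β, where 32.8% and 23.6% of all tested genes did. Their median log2 fold changes were 1.70 and 0.74. *Stat2* rose by log2 2.48 and 2.15, *Irf9* by 1.20 and 0.74, and the receptor gene *Ifnar1* by 0.94 and 0.57. Of 10 genes on the route from LPS to IFN-β, 7 rose and 1 fell with LPS, and 6 rose and 2 fell with IFN-β. *Irf7* rose by log2 3.34 and 3.12. *Tlr4*, the LPS receptor, fell by 0.63 on the log2 scale with LPS and rose by 0.40 with IFN-β. *Ifnb1*, which encodes IFN-β, held 0, 0 and 1 counts in unstimulated libraries, 137, 117 and 93 with LPS, and 9, 5 and 9 with IFN-β.

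Of 20 interferon-stimulated reference genes, 20 rose with LPS and 20 with IFN-β, where 32.8% and 23.6% of all tested genes did. Their medians were log2 4.32 and 3.31, against 2.95 and 2.50 for the Schlafen members. Between the stimuli, 11 of these 20 were lower with IFN-β, where 23.3% of all tested genes were, and 0 were higher. Their median was log2 -0.89, next to 4 of 7 lower and a median of -0.64 for the members.

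Other Schlafen loci and the neighbours on chromosome 11 were read beside the members. The pseudogene *Slfn10-ps*, which shares 7.84% of its 100-base stretches with *Slfn8* and *Slfn9*, was at 38.1, 34.8 and 25.5 CPM without stimulation, 92.3, 92.3 and 89.9 with LPS, and 86.8, 80.8 and 73.0 with IFN-β (log2 1.48 and 1.29, edgeR adjusted p = 1.9e-06 and 2.2e-05). *Slfn14*, a long member of the red cell and platelet lineages, held 1 count in 1 IFN-β library and 0 in the other 8. *Slfnl1*, a distant relative on chromosome 4, held 1 to 7 counts per library, and neither was tested. Within the cluster, 7 other genes were tested, and 7 rose with LPS and 6 with IFN-β, with medians of log2 2.09 and 1.50. The shares called higher over all tested genes were 32.8% and 23.6%. These 7 include *Slfn10-ps* itself, a microRNA gene inside it, *Slfn5os*, and an antisense gene that overlaps *Slfn2*. They are thus not all separate from the Schlafen loci. Also among them is the microRNA gene ENSMUSG00000098840 inside *Slfn9* and on its strand, whose reads cannot be told from unspliced *Slfn9* RNA. It rose by log2 3.74 and 3.24 from a mean of 0.0929 CPM without stimulation, near the floor of 3 counts.

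Outside the cluster the responses were mixed. Of 27 tested genes within 500 kb on either side, 16 rose and 7 fell with LPS, and 12 rose and 4 fell with IFN-β. The medians were log2 0.66 and 0.26. Of all tested genes, 32.8% were called higher with LPS and 23.6% with IFN-β. Of the same 16260 genes, 5750 were called lower with LPS and 3794 with IFN-β. The flanks are not wholly free of Schlafen sequence. They include the pseudogene *Gm11427*, which shares 100-base stretches with *Slfn3* and *Slfn4* and rose by log2 1.83 and 1.21. Outside the cluster, *Ccl5*, *Heatr9* and *Mmp28* were the neighbours among the 2 with the largest absolute change for either stimulus. *Ccl5*, a chemokine, was at log2 5.63 with LPS and 1.57 with IFN-β, and *Heatr9* at 4.10 and 1.63. *Mmp28*, a matrix metalloproteinase, was at 3.22 and 3.42, but from near the floor of 3 counts, with a mean of 0.166 CPM without stimulation. It reached 1.54 CPM with LPS and 1.79 with IFN-β. *Ccl5* went from 70.1 ± 10.8 CPM to 3463 ± 227 under LPS and 208 ± 29.1 under IFN-β (mean ± SD, n = 3), a log2 difference of -4.05 between the stimuli where the most unequal Schlafen gene, *Slfn4*, had -1.09.

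**Figure D5:**
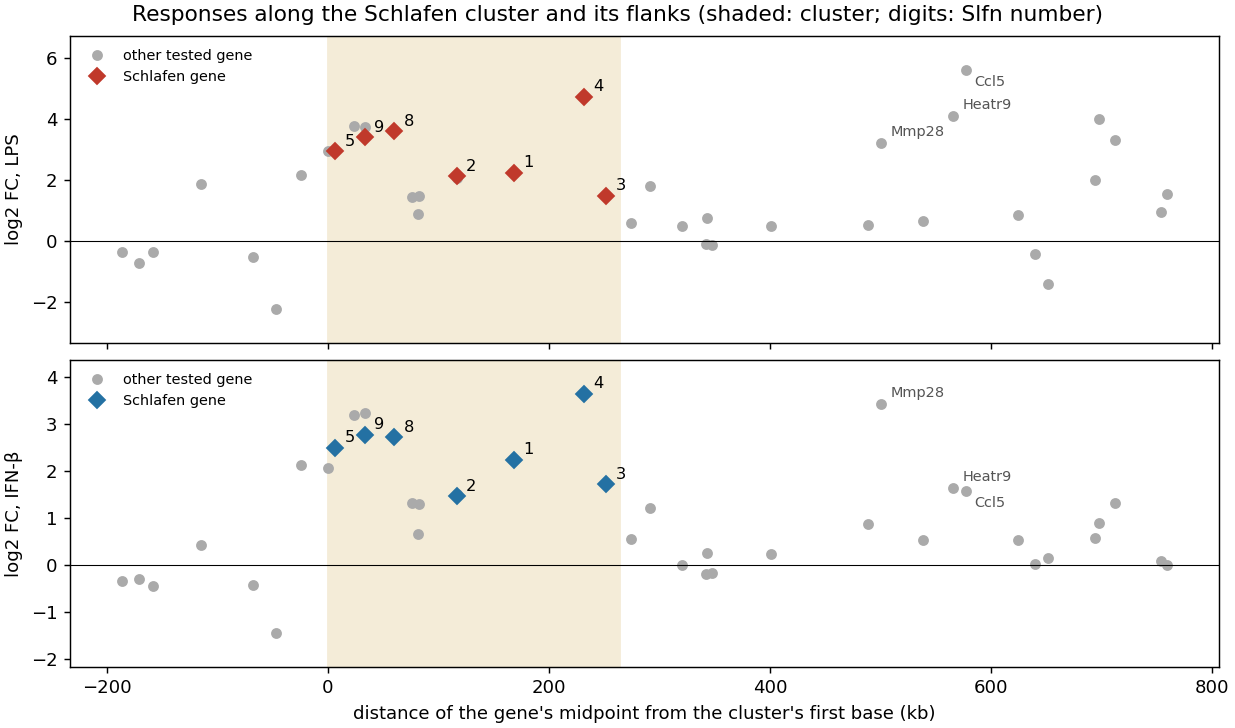
Log2 fold change with LPS (top) and IFN-β (bottom) of the tested genes of the region, against the distance of the gene's midpoint from the first base of the cluster in kb; diamonds are the Schlafen genes, marked by number, grey circles the other tested genes, and the shaded band the 263.8 kb of the cluster. All tested genes with midpoints in the band lie above 0 in both panels, while the flanks hold genes on either side of 0.

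Across the 9 libraries the members followed each other closely, with Pearson r of log2(CPM + 0.5) between 0.901 (*Slfn2* and *Slfn3*) and 0.995 and a median of 0.968 over 21 pairs. These points share the step between unstimulated and stimulated libraries, so r describes that step more than any finer likeness, and 1.36% (*Slfn1*) to 7.36% (*Slfn2*) of all tested genes had an r above 0.95 with a given member. The genes most like *Slfn1* were *Irf7* (0.997), *Lgals3bp* and *Ms4a6b*, and those most like *Slfn2* were *Ifi35* (0.999), *Usb1* and *Ifih1*, a sensor of viral RNA. *Slfn3* stood nearest to *Fcgr4* (0.996), *Fcgr1* and *Cant1*, the first of which are receptors for antibodies. *Slfn4* stood nearest to *Oasl1* (0.994), *Apol9b* and *Oas1g*, and *Slfn5* to *Ifit2* (0.999), *Irgm1* and *Znfx1*. *Slfn8* stood nearest to *Parp12*, *Tmem106a* and *Ifit1*, and *Slfn9* to *Npepps*, *Gbp7* and *Nono*, with r of 0.999 or more. *Fcgr4* and *Fcgr1* share with *Slfn3* a higher estimate under IFN-β (log2 3.55 and 2.54) than under LPS (3.15 and 2.20).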

How the data were processed

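Genes were quantified by RNA-seq of 9 libraries of DCs, prepared by the authors from ribosome-depleted RNA and sequenced as paired reads of 100 bp. The authors trimmed the reads, aligned them with STAR (2.7.8a per the submitters' notes, which also name Trim Galore 0.6.0) and deposited raw counts per gene on GENCODE M20 (GRCm38), without normalization or filter. The paper's methods name an earlier STAR release than those notes do. The strand setting is not given in the sources used here. The members and all lists were chosen with earlier results of these data known.

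Counts were analysed with edgeR 4.0.16 (R 4.3.3) as in the study's methods, with TMM factors, a quasi-likelihood F-test and 1 term per group over all 9 libraries, after filterByExpr left 16260 genes. P-values were adjusted over these genes by the Benjamini-Hochberg method, with a threshold of 0.05. SEs were derived from F and the log2 fold change. Exact permutation tests were two-sided over 3 against 3 libraries. The 95% intervals use these SEs and so carry the spread between libraries that edgeR estimated. The floor of 3 counts covers counting error only. The code was tested on simulated data with a single fixed dispersion for all genes and no letter effect, unlike the real libraries. It recovered 21.0, 83.8 and 97.1% of genes changed by an absolute log2 of 0.5, 1 and 2. Of its calls, 6.12% were false. A small difference can thus fail the test. Alternatives included DESeq2 1.42.0, other scalings and filters, and left-out libraries. After the group means were subtracted, libraries with the same letter correlated at 0.115 to 0.47 over 9 pairs, so the letters paired the libraries. The main fit and the permutation tests did not use this pairing. A fit with the letter as a replicate block was among the alternatives. Exon lengths are unions of GENCODE M21 exons. Named genes were all members, the other Schlafen loci, 7 genes of the pathway lists (1 of which is not reported here), the 2 neighbours within 500 kb with the largest absolute change for each stimulus, and the 3 genes most like each member. Markers such as *Bst2* and *Tcf4* are named for their lists.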

Additional observations from a re-analysis of the deposited data

How the results depend on the processing

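All 7 members kept a rise past the threshold under LPS and under IFN-β in each of 17 alternatives, with 7 of 7 called each time. Without 1 library in turn, 7 of 7 were called in both comparisons. Between IFN-β and LPS, leaving out 1 library in turn gave 3 to 5 members that differed, and the added fit without all 3 libraries of letter C, chosen after seeing the data, gave 5. With the letter as a replicate block 6 members differed, and the block changed no call other than those of *Slfn3* and *Slfn5*. An adjusted p under 0.01 left 2 members (*Slfn2* and *Slfn9*), and an absolute log2 difference of at least 1 left 1 (*Slfn4*).

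The near-zero difference of *Slfn1* changed sign without passing the test, at 0.27 with library-size scaling, 0.003 with upper-quartile factors, 0.0065 without a filter, 0.0093 with 2 groups, and 0.055, 0.030 and 0.088 without LPS library A, LPS library B and IFN-β library C, within a range of -0.14 to 0.088 over the left-out libraries. Scaling by library size moved the median of all genes by -0.58 (LPS), -0.31 (IFN-β) and 0.28 (IFN-β against LPS), and changed the share of calls that were higher from 48.1, 50.3 and 52.5% to 21.9, 22.3 and 77.9%. The cause was not tested. Depth limits no member, and *Slfn14* and *Slfnl1* lie at or near the floor of 3 counts.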
